A study of Homo sapiens with 4 samples.

Results

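Collagens are the triple-helical proteins of the extracellular matrix, and the genes described here are the 42 protein-coding genes of chromosomes 1 to 22 with symbols of the COL1A1 type, out of 18973 protein-coding genes on these chromosomes. Members were found by symbol alone in RefSeq's list for GRCh38.p14, whose coordinates are those of the hg38 build of the files. COL4A5 and COL4A6 lie on the X chromosome and were outside the rule. Every peak of H2AK119ub, the monoubiquitinated form of histone H2A, that touched the gene span or the 10 kb on either side of it was counted to a member. The knockdown cells were H1 human embryonic stem cells given an shRNA (short hairpin RNA) for YTHDF1, and they were set against untreated wild-type H1 cells; no control hairpin was analysed here. H1 is an established cell line, and both groups were grown in mTeSR1 medium. Each group had 1 library made with an antibody against H2AK119ub and 1 input library, and the inputs were not analysed here. The deposited lists gave 34097 peaks in knockdown cells and 32451 in wild-type cells on chromosomes 1 to 22, covering 167 Mb in knockdown cells and 193.5 Mb in wild-type cells. With 1 library a group there was no replicate spread, so no difference below was tested, and the depth behind the lists is unknown. A peak list of a histone mark shows no RNA, so neither the stem cell identity nor the lowering of YTHDF1 could be checked.

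H2AK119ub is written by the Polycomb repressive complex PRC1, whose RING1 and RNF2 subunits act as the ubiquitin ligase. In embryonic stem cells the mark is known from the CpG-rich starts of genes that are held silent for later lineages, and it also spreads more thinly over other chromatin. YTHDF1 is a cytoplasmic protein that binds methylated adenosine in messenger RNA. Collagens are made mainly by mesenchymal cells, chondrocytes, bone cells and epithelia, while the type IV chains are laid down early in embryonic basement membranes. A collagen gene typically spreads many short exons over a long span, and the members had a median length of 133 kb against 24.8 kb for all protein-coding genes. The covered length used below is the number of bases of a member's span plus 10 kb on each side that lay inside peaks.

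Most collagen genes carried the mark at an end of the gene in both lists. A peak lay within 2 kb of either annotated end at 33 of the 42 members in knockdown cells and at 34 in wild-type cells. The background over all protein-coding genes was 71.5% in knockdown cells and 71.4% in wild-type cells, so the members' shares of 78.6% in knockdown cells and 81.0% in wild-type cells stood a little above it. COL17A1, which encodes a collagen of the hemidesmosomes that tie epithelia to their basement membrane, was marked in wild-type cells alone, where the background was 4.74%. No member was marked in the knockdown alone, where the background was 4.88%. The wild-type peak that marked COL17A1 was 2.8 kb wide and overlapped the 2 kb around the gene end away from the start by 0.286 kb, so the call rested on the edge of 1 peak. COL9A1 and COL21A1 were marked in neither list by this rule, although each had a peak inside the gene.

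Over the whole windows the mark covered less DNA at collagen genes in the knockdown list. With overlapping windows merged, the members held 766 kb of covered sequence in knockdown cells and 970 kb in wild-type cells, a difference of -21.0%. Summed gene by gene without merging, as for the backgrounds that follow, the members differed by -20.7%. The mean over all protein-coding genes was 9.96 kb in knockdown cells and 11.6 kb in wild-type cells, a difference of -14.0%. The median member had 11.5 kb in knockdown cells and 14.7 kb in wild-type cells, and the median difference was -1.70 kb, against -0.20 kb over all protein-coding genes. Over the 6000 protein-coding genes of 50 kb or more, which are closer to the members in length, the summed difference was -16.0% and the median difference -0.40 kb. Covered length was lower in the knockdown at 28 members (background 51.7%), higher at 8 (background 29.1%), and 6 members had no peak in either list (background 17%).

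A member was called shorter or longer when its covered length differed by at least 1.5-fold and 1 kb. By this rule 12 members (28.6%) were shorter in the knockdown, where the background was 21%, and 2 (4.76%) were longer, where it was 11.4%. Among the genes of 50 kb or more the backgrounds were 25.2% shorter and 14.7% longer, so the members' share of shorter genes lay near that of other long genes. The split depended on scale. When covered lengths were scaled to equal totals of the lists, 5 members were shorter and 3 longer, with 14.6% and 15.5% over all protein-coding genes. When the wild-type list was reduced to its highest-scored peaks so that both lists covered equal bases, 7 members were shorter and 2 longer, with 14.1% and 18.1% over all protein-coding genes.

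**Figure D1:**
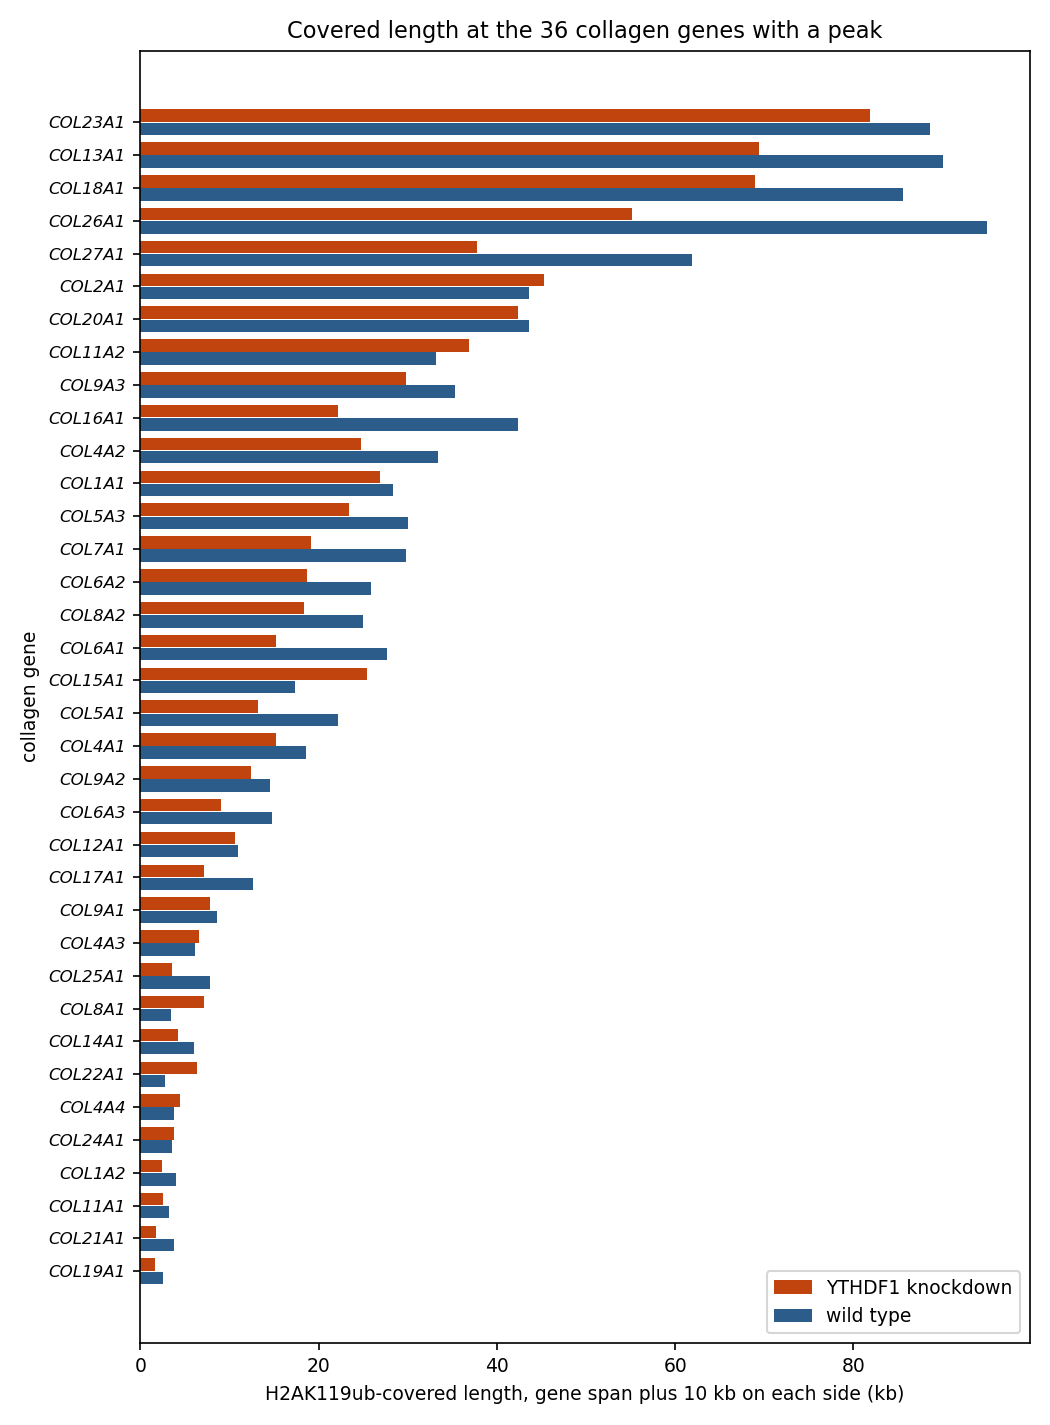
Bars give the length inside H2AK119ub peaks (kb, x axis) over the gene span plus 10 kb on each side for each of the 36 collagen genes with a peak, with the YTHDF1 knockdown above the wild type and 1 library each. COL26A1, with 55.2 kb in knockdown cells and 95.02 kb in wild-type cells, has the widest gap, while COL2A1, COL11A2, COL15A1, COL8A1 and COL22A1 are among the genes with longer knockdown bars.

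The members differed widely in how they carried the mark. At the upper end COL23A1, a transmembrane collagen (chromosome 5, 178237618 to 178590393), had 81.8 kb in 20 knockdown peaks and 88.6 kb in 18 wild-type peaks. Those peaks were a chain of separate intervals along a long gene, the widest of 9.40 kb in knockdown cells and 16 kb in wild-type cells. At the other extreme, 10 members had exactly 1 peak in each list. COL12A1, which encodes a collagen bound to the surface of type I fibrils, had a single peak of 10.6 kb in knockdown cells and 11 kb in wild-type cells over its start. In share of the window, 6 members in knockdown cells and 10 in wild-type cells were at least 50% covered, most of them shorter than the median member. COL2A1 stood highest, with 84.98% of its window covered in knockdown cells and 82.0% in wild-type cells.

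The fibrillar collagens form the load-bearing fibrils of bone, skin, tendon and cartilage. Of the 11 genes in this class, 9 (81.8%) were marked at an end in both lists. The background was 71.5% in knockdown cells and 71.4% in wild-type cells. In the knockdown 3 (27.3%) were shorter, where the background was 21%, and none was longer, where it was 11.4%. Among genes of 50 kb or more 25.2% were shorter, near the share in this class. COL1A1 and COL1A2 encode the partner chains of type I collagen, the main protein of bone and tendon, and they differed strongly from each other in both lists. COL1A1 (chromosome 17, 50184101 to 50201631) had 26.9 kb in knockdown cells and 28.3 kb in wild-type cells, or 71.8% of its window in knockdown cells and 75.5% in wild-type cells. COL1A2 (chromosome 7, 94394895 to 94431227) had 2.40 kb in knockdown cells and 4 kb in wild-type cells, a single peak in each list, and was called shorter. The window of COL1A1 also reaches the neighbouring gene SGCA.

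COL2A1 (chromosome 12, 47972967 to 48006212) encodes type II collagen, the main fibril protein of cartilage. It had 45.2 kb in knockdown cells and 43.6 kb in wild-type cells, in a window that also reaches TMEM106C. A peak at the ceiling score of 1000 lay over 1 end of the gene in both lists, 42.2 kb wide in the knockdown (47993601 to 48035800) and 38 kb wide in wild-type cells (47995001 to 48033000). The score is the authors' own value per peak, of unknown unit, and it serves below only to rank peaks within their own list. The remaining part of COL2A1 lay under a single knockdown peak of 19.4 kb, where the wild type had separate peaks of 3.80, 3 and 10 kb. COL11A2, which encodes a chain of the type XI collagen that nucleates cartilage fibrils, lies on chromosome 6 (33162694 to 33193519). It also had more covered length in the knockdown, with 36.9 kb in knockdown cells and 33.1 kb in wild-type cells. Its knockdown peak of 29.6 kb at the start spanned 2 wild-type peaks of 11.2 and 20 kb, and its window also holds RXRB and SLC39A7.

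COL27A1, a fibrillar collagen of cartilage (chromosome 9, 114154098 to 114312511), had 37.8 kb in 8 knockdown peaks and 61.9 kb in 13 wild-type peaks and was called shorter. At its start the knockdown had 1 peak of 14.2 kb where the wild type had neighbouring peaks of 9.40 and 4.80 kb. In its window 3 knockdown peaks and 7 wild-type peaks touched no peak of the other list, the widest a wild-type peak of 10.4 kb inside the gene (114169401 to 114179800). COL5A1, whose chain joins type I fibrils and limits their width, had 13.2 kb in knockdown cells and 22.2 kb in wild-type cells. Both lists covered its start, with knockdown peaks of 2.60 and 7.40 kb and a wild-type peak of 7.80 kb. The 4 wild-type peaks inside the gene touched no knockdown peak, and the knockdown peak of 3.20 kb inside it touched no wild-type peak.

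COL5A3, whose chain can join type V collagen, had 23.4 kb in knockdown cells and 30 kb in wild-type cells, in 6 peaks in each list. The remaining fibrillar genes carried the mark at 1 place or not at all. COL11A1 had 2.60 kb in knockdown cells and 3.20 kb in wild-type cells, and COL24A1 had 3.80 kb in knockdown cells and 3.60 kb in wild-type cells, each in 1 peak at the start. COL3A1, which encodes the type III collagen of skin and vessel walls, and COL5A2 lie beside each other on chromosome 2 with 19151 bp between them. Neither had a peak in its window in either list, over 58.4 kb for COL3A1 and 429 kb for COL5A2.

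The type IV chains form the network of basement membranes. All 4 genes of chromosomes 1 to 22 were marked in both lists, and none was called shorter or longer. The backgrounds were 71.5% marked in knockdown cells, 71.4% marked in wild-type cells, 21% shorter and 11.4% longer. COL4A1 and COL4A2 stand head to head on chromosome 13, with 126 bp between their outer ends (110307158 to 110307283), and a single peak covered both starts in each list. That peak was 8.20 kb wide in the knockdown (110304601 to 110312800) and 11.2 kb wide in wild-type cells (110301401 to 110312600). COL4A1 had 15.2 kb in knockdown cells and 18.6 kb in wild-type cells in all, and COL4A2 had 24.8 kb in knockdown cells and 33.4 kb in wild-type cells. COL4A3 and COL4A4, the chains of the mature kidney filter, are arranged in the same way on chromosome 2 and shared a peak of 4.40 kb in knockdown cells and 3.80 kb in wild-type cells. The gap between COL4A1 and COL4A2 is printed because it separates the starts of both genes and lay under 1 peak in each list. It is RefSeq sequence of GRCh38.p14 from chr13:110307158-110307283 on the plus strand, with CG dinucleotides in capitals.
COL4A1-COL4A2 gap: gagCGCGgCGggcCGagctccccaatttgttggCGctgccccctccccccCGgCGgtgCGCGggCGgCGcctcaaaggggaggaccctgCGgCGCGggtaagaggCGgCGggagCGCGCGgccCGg
This gap held 20 CG dinucleotides in 126 bases.

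The beaded-filament genes encode type VI collagen, a microfibril around muscle and other cells. Of the 5 genes in this class 3 (60%) were marked in both lists, COL6A1 and COL6A2 on chromosome 21 and COL6A3 on chromosome 2. The background was 71.5% in knockdown cells and 71.4% in wild-type cells. In the knockdown 2 (40%) were shorter, against 21% of all protein-coding genes and 25.2% of those of 50 kb or more. None was longer, where the background was 11.4%. COL6A1 had 15.2 kb in knockdown cells and 27.6 kb in wild-type cells and was called shorter. Its main peak, at the ceiling score in both lists, was nearly the same size, with 17.4 kb in knockdown cells and 17.8 kb in wild-type cells. The difference lay in 2 wild-type peaks of 7.40 and 4.40 kb farther along the gene that touched no knockdown peak. COL6A2 had 18.6 kb in knockdown cells and 25.8 kb in wild-type cells, with a start peak of 8 kb in knockdown cells and 7 kb in wild-type cells. Its window also reaches FTCD. COL6A3 had 9 kb in knockdown cells and 14.8 kb in wild-type cells and was called shorter. COL6A5 and COL6A6, both on chromosome 3, had no peak in either list.

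The FACIT collagens sit on the surface of fibrils and link them to their surroundings. Of these 10 genes 8 (80%) were marked in both lists, where the background was 71.5% in knockdown cells and 71.4% in wild-type cells. In the knockdown 3 (30%) were shorter and 1 (10%) was longer. The backgrounds were 21% and 11.4% over all protein-coding genes, and 25.2% and 14.7% over those of 50 kb or more. COL16A1 (chromosome 1, 31652263 to 31704017) had 22.2 kb in knockdown cells and 42.4 kb in wild-type cells and was called shorter. In the wild type a peak of 9.80 kb covered its start and was followed into the gene by peaks of 6.20, 6.20 and 2.80 kb, while the knockdown had a 4 kb peak at the start and none over that stretch. COL9A2 and COL9A3 encode chains of type IX collagen, which coats cartilage fibrils. COL9A3 (chromosome 20, 62816213 to 62841159) had 29.8 kb in knockdown cells and 35.3 kb in wild-type cells, with a main peak of 16 kb in knockdown cells and 19.2 kb in wild-type cells. Its window also holds OGFR and TCFL5. COL9A2 had 12.4 kb in knockdown cells and 14.6 kb in wild-type cells. COL20A1, also on chromosome 20, had 42.4 kb in knockdown cells and 43.6 kb in wild-type cells, in a window that also holds ARFGAP1 and CHRNA4. COL14A1 had 4.20 kb in knockdown cells and 6 kb in wild-type cells. COL19A1, with 1.60 kb in knockdown cells and 2.60 kb in wild-type cells, was called shorter, and COL22A1, with 6.40 kb in knockdown cells and 2.80 kb in wild-type cells, was called longer.

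The transmembrane collagens span the cell membrane and shed their ectodomains. All 4 had lower covered length in the knockdown, where the background was 51.7%. Of these genes 2 (50%) were called shorter, against 21% of all protein-coding genes and 25.2% of those of 50 kb or more. COL13A1, found at cell adhesions and at the neuromuscular junction, had 69.4 kb in 17 knockdown peaks and 90 kb in 16 wild-type peaks. COL25A1, a collagen of neurons, had 3.60 kb in knockdown cells and 7.80 kb in wild-type cells. Its start peak measured 3.60 kb in knockdown cells and 4.40 kb in wild-type cells, and the rest was 1 wild-type peak of 3.40 kb inside the gene. COL17A1 had 7.20 kb in knockdown cells and 12.6 kb in wild-type cells and no peak at its start in either list.

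The multiplexins COL15A1 and COL18A1 lie in the basement membrane zone, and COL18A1 is the source of the angiogenesis inhibitor endostatin. They differed in opposite directions. COL18A1 (chromosome 21, 45405165 to 45513720) had 69.0 kb in knockdown cells and 85.5 kb in wild-type cells. A wild-type peak of 22 kb covered its outer start, and the knockdown had neighbouring peaks of 11.6 and 5.40 kb there. COL15A1 (chromosome 9, 98943907 to 99070787) had 25.4 kb in knockdown cells and 17.4 kb in wild-type cells, the largest increase of any member at 8 kb, but short of the 1.5-fold rule. Each of its 3 wild-type peaks had a wider knockdown counterpart, and the knockdown had an additional peak of 4.80 kb.

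Among the short-chain collagens COL8A1, a component of vessel and corneal membranes, had a single peak of 7.20 kb in knockdown cells and 3.40 kb in wild-type cells and was called longer. Its partner chain COL8A2 had 18.4 kb in knockdown cells and 25.0 kb in wild-type cells. COL10A1, the marker collagen of hypertrophic cartilage, had no peak in either list. COL7A1, which forms the anchoring fibrils beneath the epidermis, had 19.1 kb in knockdown cells and 29.8 kb in wild-type cells and was called shorter. Its window also holds PFKFB4, UCN2 and UQCRC1.

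COL26A1 (chromosome 7, 101362388 to 101559024) had the largest difference of all members. It had 55.2 kb in 15 knockdown peaks and 95.02 kb in 21 wild-type peaks, a 1.72-fold lower covered length in the knockdown. Its start peak was nearly equal, with 4 kb in knockdown cells and 4.20 kb in wild-type cells. Farther in, a wild-type peak of 19.4 kb (101395201 to 101414600) met 3 knockdown peaks of 7.40, 3 and 4.20 kb. In its window 2 knockdown peaks with 6.60 kb and 9 wild-type peaks with 31.4 kb touched no peak of the other list. COL28A1, the remaining member, had no peak in either list. Over all members the decreases summed to -227 kb and the increases to 22 kb, and COL26A1, COL27A1 and COL13A1 held 37.3% of the decreases.

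**Figure D2:**
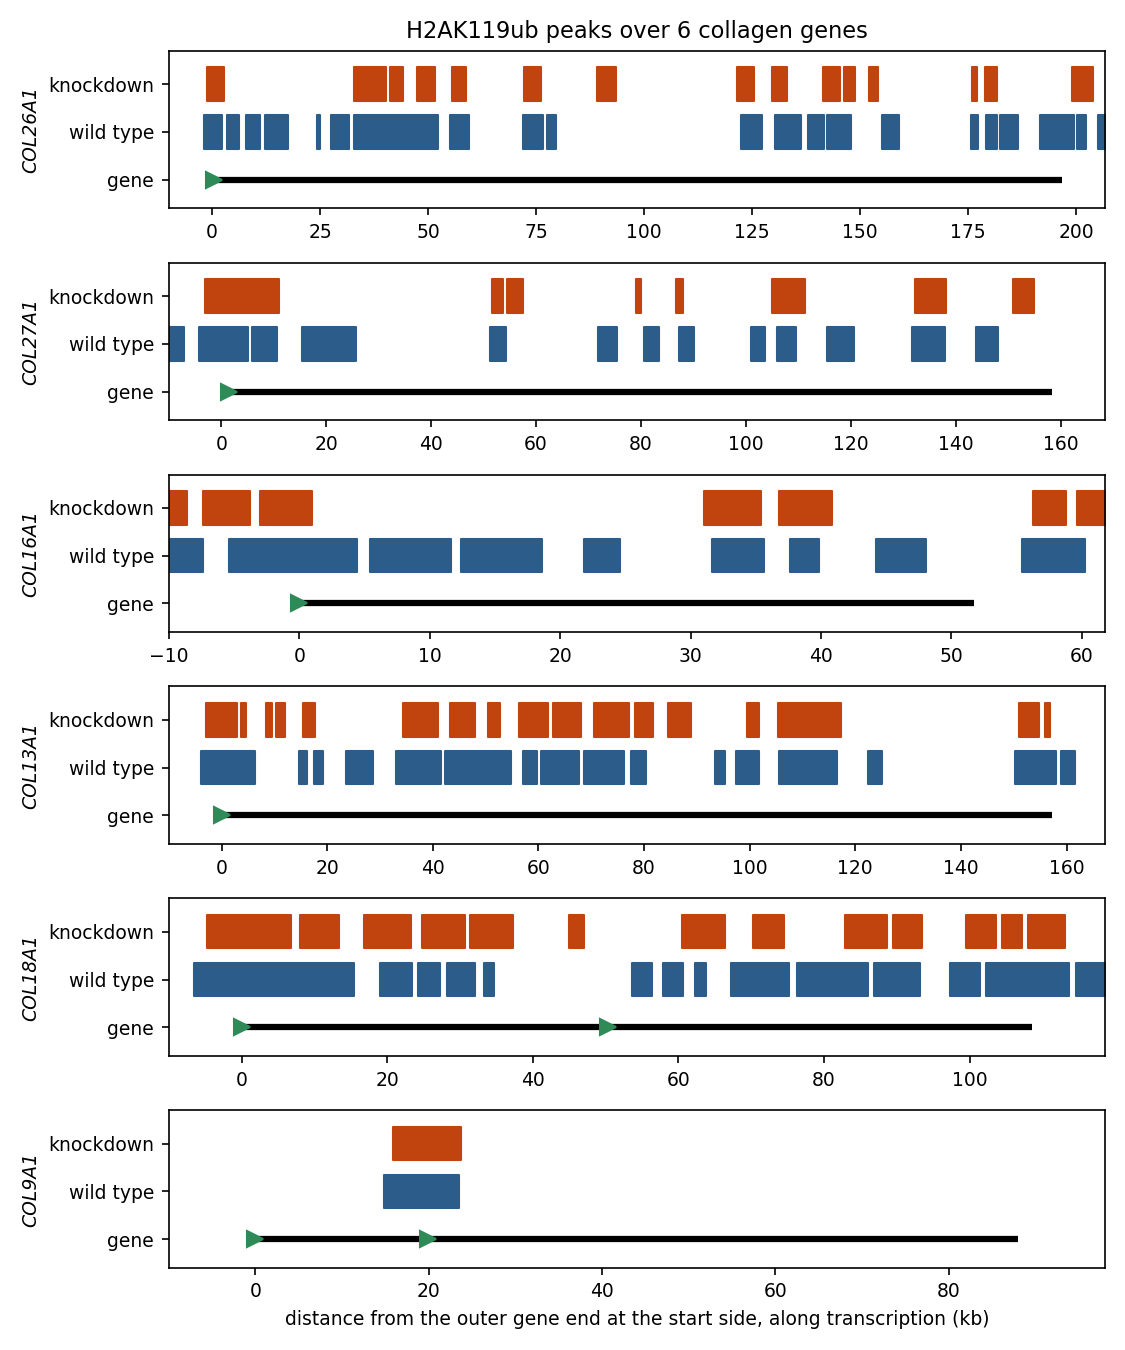
Each panel shows a collagen gene as a black line with green triangles at the RefSeq starts, against distance from the outer gene end on the start side (kb, along transcription), and the H2AK119ub peaks of the YTHDF1 knockdown above those of the wild type. Every gene has a peak at a start in both rows, but the outer start of COL9A1 and the inner start of COL18A1 have none. Wild-type peaks inside COL26A1, COL27A1 and COL16A1 often have no knockdown peak above them, and the only peak of COL9A1 lies at its inner start.

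The windows held 162 knockdown and 181 wild-type peaks. Of these, 131 knockdown peaks (80.9%, exact binomial 95% interval 74.0% to 86.6%) and 130 wild-type peaks (71.8%, 64.7% to 78.3%) shared at least 1 bp with a peak of the other list. These intervals treat peaks as independent and cover counting error only. Over all peaks of chromosomes 1 to 22 the shares were 74.1% in knockdown cells and 71.5% in wild-type cells. Each of the 27 knockdown and 25 wild-type peaks within 2 kb of a listed start had a counterpart. In gene bodies 62 of 91 knockdown peaks (68.1%) and 66 of 109 wild-type peaks (60.6%) had one. Peaks near any protein-coding gene, sorted in the same way, showed the same order, with 91.3% of knockdown and 92.4% of wild-type peaks matched at starts and 61.4% of knockdown and 54.0% of wild-type peaks matched in gene bodies. A higher share matched at starts than in gene bodies was therefore not particular to collagen genes. Starts were taken from the RefSeq promoter table, which listed 41 starts for 30 members; COL1A1, COL1A2, COL2A1, COL3A1, COL5A2, COL6A1, COL6A5, COL8A1, COL9A3, COL14A1, COL20A1 and COL22A1 had no entry, and their peaks are counted by gene end.

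**Figure D3:**
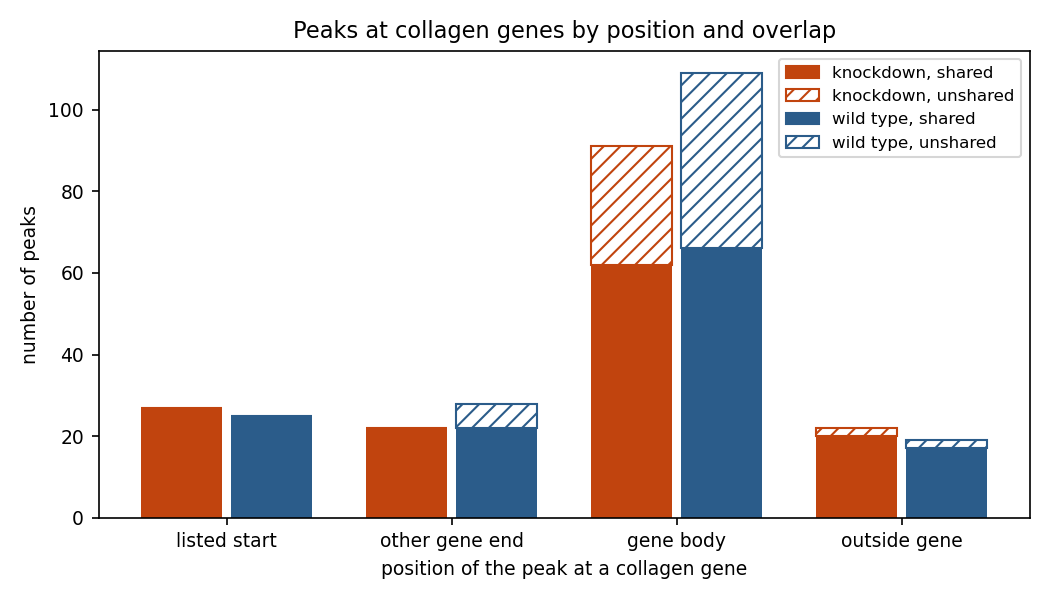
Bars count the H2AK119ub peaks at collagen genes (y axis) by position (x axis), with the knockdown left of the wild type, filled where the peak touches a peak of the other list and hatched where it does not. All 27 knockdown and 25 wild-type peaks at listed starts are filled, and most hatched peaks lie in gene bodies.

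The 31 unmatched knockdown peaks had a median width of 2.80 kb, against 4.20 kb for the matched ones, and summed to 85 kb. The 51 unmatched wild-type peaks had a median width of 3.80 kb, against 4.80 kb for the matched ones, and summed to 201 kb. Over all chromosomes the unmatched peaks had medians of 2.80 kb in knockdown cells and 3.40 kb in wild-type cells. Of the unmatched collagen peaks, 25 knockdown peaks (80.7%) and 43 wild-type peaks (84.3%) ranked in the lower 50% of their list by score, while 37.0% of all collagen peaks in the knockdown list and 50.8% in the wild-type list did. Over all chromosomes 86.2% of unmatched knockdown peaks and 85.7% of unmatched wild-type peaks ranked there. The highest score among the unmatched collagen peaks was 20.7 in knockdown cells and 24.4 in wild-type cells. When each list was restricted to its upper 50% by score, the members' covered length, with windows merged, differed by -3.92%. That of all protein-coding genes, summed gene by gene without merging, differed by -14.9%. Those peaks covered 594.6 kb in knockdown cells and 619 kb in wild-type cells, and 7 members were shorter and 5 longer, with 19.4% and 11.03% over all protein-coding genes.

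Counted by zone, the interior of the genes, over 10 kb from both ends, held 332 kb in knockdown cells and 454 kb in wild-type cells, a difference of -26.9%. The same zone differed by -20.04% over all protein-coding genes and by -20.1% over those of 50 kb or more. Within 2 kb of either end the members held 142 kb in knockdown cells and 169 kb in wild-type cells (-16.1%), against -7.44% over all protein-coding genes. From 2 to 10 kb the members differed by -15.2% and all protein-coding genes by -15.1%. These sums count a base once for each gene whose window holds it.

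Of the 41 collagen starts, 31 had a peak within 2 kb in both lists, 10 in neither, and none in 1 list alone. Over all protein-coding genes 10.4% of 21156 starts had a peak in 1 list alone. Several collagen starts share a peak, as in COL11A2, COL5A1, COL24A1 and the paired type IV genes. With each set of peaks counted once, the 31 marked starts gave 25 sets, of which 13 were wider and 12 narrower in the knockdown, and the median summed width was 7 kb in both lists. Over all protein-coding genes 9227 such sets had medians of 5 kb in knockdown cells and 5.80 kb in wild-type cells, and 34.8% were wider in the knockdown, against 52% of the collagen sets. A knockdown peak spanning 2 wild-type peaks can count as wider without more covered length. At COL27A1 the width was 14.2 kb in knockdown cells and 9.40 kb in wild-type cells. Covered length within 10 kb of that start was 14.2 kb in knockdown cells and 15.7 kb in wild-type cells. At COL5A1 both measures gave 10 kb in knockdown cells and 7.80 kb in wild-type cells. Counted by single peak, the 27 knockdown peaks at collagen starts had a median width of 6.40 kb and the 25 wild-type peaks one of 7 kb.

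**Figure D4:**
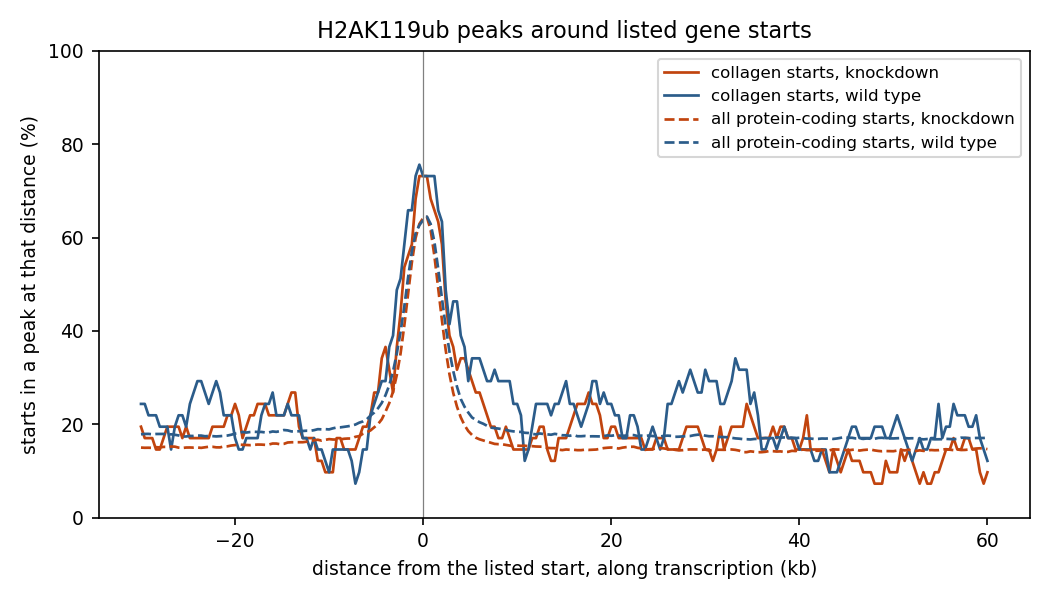
Lines give the share of listed starts (y axis, percent) that lie in an H2AK119ub peak at each distance along transcription (x axis, kb), for the 41 collagen starts (solid) and the 21156 starts of all protein-coding genes (dashed), knockdown and wild type. Both solid lines stand at 73.2% at the start itself, where the dashed lines stand at 64.2% in knockdown cells and 63.8% in wild-type cells.

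The starts with a peak held more CG dinucleotides, at the median, than those without. In the 300 bases of the RefSeq window, 250 before and 50 after the start, the median count was 24 at the 31 starts with a peak in both lists and 2.50 at the 10 with none. A window was called CG-rich when its observed over expected CG ratio was at least 0.6 and its G and C content at least 50%. Of the 22 CG-rich collagen starts, which lay in 19 genes and partly shared peaks, 21 had a peak in each list (95.5%). Of the other 19 starts 10 had one (52.6%). Over all protein-coding genes the shares were 86.7% in knockdown cells and 85.2% in wild-type cells for CG-rich starts, and 42.3% in knockdown cells and 42.6% in wild-type cells for the others. The exception among CG-rich starts was COL6A6. The letters TATAAA, searched on both strands, were found at 5 of the 10 unmarked collagen starts and at 3 of the 31 marked ones. Over all protein-coding genes they stood at 20.3% of starts with no peak in either list and at 5.44% of those marked in both. CCAAT was found at 12 and GGGCGG at 23 of the 41 collagen starts (29.3% and 56.1%), and at 34.4% and 56.6% of all protein-coding starts.

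**Figure D5:**
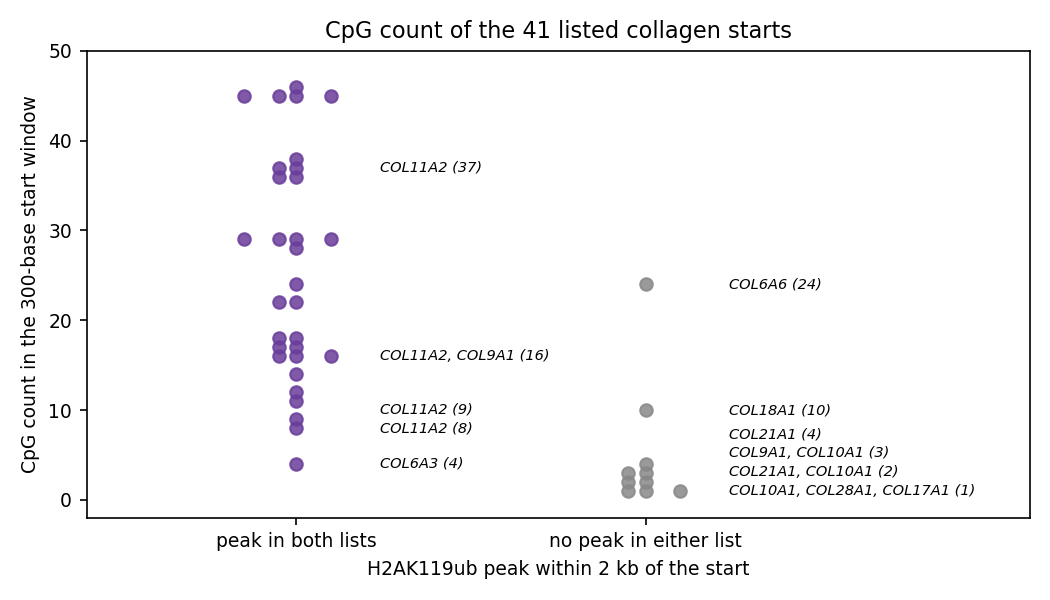
Points give the CpG count in the 300-base window of each of the 41 listed collagen starts (y axis), split by whether a peak lay within 2 kb in both lists or in neither (x axis). Marked starts run from 4 at COL6A3 up to 46, and the unmarked ones lie at 10 or below except COL6A6 at 24.

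Several collagen genes have more than 1 listed start, and the lists treated those starts differently. Of 7 such members with 18 starts, 3 had every start marked, 3 had some marked and some not, and COL10A1 had none of its 3 marked, with the same result in both lists. COL9A1 has an outer start and an inner one 19.9 kb into the gene, and the inner start is known to produce a shorter chain. The gene's only peak lay at the inner start, 7.80 kb wide in the knockdown (70279401 to 70287200) and 8.60 kb wide in wild-type cells (70279601 to 70288200). COL21A1, another FACIT gene, had its only peak at a start 146.5 kb into the gene, 1.80 kb wide in knockdown cells and 3.80 kb in wild-type cells, and was called shorter. Its outer start and a start 302.5 kb into the gene had no peak. COL18A1 showed the opposite order, with a peak at its outer start and none within 2 kb of the start 50.4 kb into the gene.

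The 200 bases before each of these starts are shown because the same gene holds a marked and an unmarked start, and the sequence differs between them in CG content. They are RefSeq sequences of GRCh38.p14, printed 5′ to 3′ on the gene's strand with every CG dinucleotide in capitals. COL6A6, the CG-rich start without a peak, follows them.
COL9A1 outer start, no peak, chr6:70303085-70303284, minus strand: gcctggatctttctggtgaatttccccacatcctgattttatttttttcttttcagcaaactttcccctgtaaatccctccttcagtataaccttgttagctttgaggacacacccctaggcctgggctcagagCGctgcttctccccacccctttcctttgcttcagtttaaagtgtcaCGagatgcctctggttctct
COL9A1 inner start, peak in both lists, chr6:70283198-70283397, minus strand: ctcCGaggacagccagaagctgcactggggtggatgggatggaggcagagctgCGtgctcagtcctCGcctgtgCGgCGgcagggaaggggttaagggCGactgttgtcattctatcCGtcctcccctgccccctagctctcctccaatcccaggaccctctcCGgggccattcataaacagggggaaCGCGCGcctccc
COL21A1 outer start, no peak, chr6:56394129-56394328, minus strand: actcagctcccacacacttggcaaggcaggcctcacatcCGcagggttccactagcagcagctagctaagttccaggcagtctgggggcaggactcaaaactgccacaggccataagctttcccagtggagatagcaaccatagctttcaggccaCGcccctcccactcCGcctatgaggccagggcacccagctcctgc
COL21A1 inner start, peak in both lists, chr6:56247581-56247780, minus strand: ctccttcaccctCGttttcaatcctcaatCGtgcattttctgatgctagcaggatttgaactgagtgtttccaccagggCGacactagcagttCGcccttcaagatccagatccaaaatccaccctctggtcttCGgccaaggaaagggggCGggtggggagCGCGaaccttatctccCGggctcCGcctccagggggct
COL18A1 outer start, peak in both lists, chr21:45404965-45405164, plus strand: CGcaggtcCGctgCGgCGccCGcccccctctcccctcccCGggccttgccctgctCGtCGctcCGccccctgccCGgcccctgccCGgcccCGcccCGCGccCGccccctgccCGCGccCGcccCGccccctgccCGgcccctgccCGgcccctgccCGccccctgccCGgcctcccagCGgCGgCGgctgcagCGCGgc
COL18A1 inner start, no peak, chr21:45455322-45455521, plus strand: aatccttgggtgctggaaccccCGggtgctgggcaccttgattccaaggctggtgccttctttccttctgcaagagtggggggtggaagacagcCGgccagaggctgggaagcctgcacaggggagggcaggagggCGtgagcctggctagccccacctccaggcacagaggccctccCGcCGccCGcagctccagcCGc
COL6A6 start, no peak, chr3:130516977-130517176, plus strand: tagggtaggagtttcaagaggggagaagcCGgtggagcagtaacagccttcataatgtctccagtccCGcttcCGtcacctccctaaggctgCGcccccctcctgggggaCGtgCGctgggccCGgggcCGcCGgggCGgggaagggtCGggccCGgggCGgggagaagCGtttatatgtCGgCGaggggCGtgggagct
In these 200 bases the marked start held more CG dinucleotides than the unmarked one in each gene. The counts were 11 at the inner and 2 at the outer start of COL9A1, 10 at the inner and 3 at the outer start of COL21A1, and 28 at the outer and 7 at the inner start of COL18A1. The COL6A6 stretch held 17, more than the marked start of COL9A1 or that of COL21A1. By the 300-base rule above, these 2 marked starts were not CG-rich, with ratios of 0.53 at COL9A1 and 0.57 at COL21A1.

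The genes that build, bind and remodel collagens were set beside the members. Their counts are read against the same background of all protein-coding genes, with 71.5% marked in knockdown cells and 71.4% in wild-type cells, 21% shorter, 11.4% longer and a summed difference of -14.0%. All 29 genes of collagen modification, processing and cross-linking were marked at an end in both lists, and their summed covered length was 2.61% higher in the knockdown, with 2 shorter and 5 longer in the knockdown. Their median length, 37.7 kb, was much shorter than that of the collagens. LOXL1, a lysyl oxidase that cross-links matrix, had 18.8 kb in knockdown cells and 33 kb in wild-type cells, the largest decrease in that list, followed by BMP1, a procollagen C-proteinase, with 46.4 kb in knockdown cells and 53.0 kb in wild-type cells. LOXL2 had 26.6 kb in knockdown cells and 14.8 kb in wild-type cells, and COLGALT1, which glycosylates hydroxylysine, had 26 kb in knockdown cells and 16 kb in wild-type cells.

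Of the 10 collagen receptor genes 7 were marked in each list (70%), near the background share. ITGA2 was marked in the knockdown alone, with 2.80 kb in knockdown cells and no peak in wild-type cells, and ITGA1 in wild-type cells alone. Of the 10, 3 were shorter and 2 longer in the knockdown, and their covered length differed by -17.3%. ITGA10, a collagen-binding integrin of chondrocytes, had 4.25 kb in knockdown cells and 18.7 kb in wild-type cells, and the platelet receptor gene GP6 had 11.2 kb in knockdown cells and 20.7 kb in wild-type cells. The discoidin receptor gene DDR1 had 20.8 kb in knockdown cells and 13 kb in wild-type cells. Of the 12 laminin, nidogen and proteoglycan genes that share basement membranes with type IV collagen, 11 were marked in both lists, 1 was shorter and 1 longer, and covered length differed by -13.8%. NID1, which bridges laminin and type IV collagen, had 12.2 kb in knockdown cells and 4.20 kb in wild-type cells, LAMA3 had 7.40 kb in knockdown cells and 15.8 kb in wild-type cells, and LAMA5 had 32.5 kb in knockdown cells and 47.8 kb in wild-type cells. Of the 6 collagenase and gelatinase genes 3 were marked in both lists, and MMP1, MMP8 and MMP13 had no peak in either. MMP14, the membrane-bound protease, had 9.60 kb in knockdown cells and 17.0 kb in wild-type cells, MMP2 had 12.8 kb in knockdown cells and 9.80 kb in wild-type cells, and MMP9 had 18.8 kb in knockdown cells and 22.2 kb in wild-type cells. Together the 57 genes differed by -5.32%, with 7 shorter and 8 longer in the knockdown.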

How the data were processed

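Chromatin immunoprecipitation sequencing peak lists of H2AK119ub were analysed for YTHDF1 knockdown and wild-type H1 cells, 1 library each, grouped by sample title. The submitters' processing notes list SICER 1.1, MACS2 2.1.0, Picard, SAMtools 1.3.1, Bowtie2 2.2.5 and Trimmomatic 0.35 with build hg38. Their roles, the peak caller and any use of the inputs are not given in the sources used here. For each peak the authors deposited its position, a name and a score, and the score has no stated unit. As deposited, each start was a multiple of 200 bp and each end lay 1 bp below one, so ends were read as inclusive, and the positions given here are 1-based. Lists without read counts leave depth unknown, so a region just under the calling threshold appears as no peak.

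Only chromosomes 1 to 22 were used, without 153 protein-coding entries placed on scaffolds. Covered length, overlap of at least 1 bp and start windows were computed in Python 3.11.15 and checked on simulated intervals. Start positions, strand and sequences came from RefSeq (GRCh38.p14), which matched 30 of 42 members and 15101 of 18973 genes. Since each group had 1 library, no test was run. Of the members, 30 were named by a rule (longest, largest decreases and increases, unequal marking, no peak, and a fixed set); the other 12 are given for completeness, and COL9A1, COL21A1 and COL6A3 were singled out after their values were seen. Members, lists and windows were chosen with earlier results of these data known.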

Additional observations from a re-analysis of the deposited data

How the results depend on the processing

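The knockdown list covered 167 Mb and the wild-type list 193.5 Mb, so a lower sum in the knockdown was not particular to collagen genes. Over all protein-coding genes, summed gene by gene without merging, the difference was -15.9% over gene spans alone. It was -12.3% within 10 kb of gene ends, -14.9% in the upper 50% by score and -3.99% with equal covered bases. Each of the 9 alternatives likewise kept the summed covered length of collagen genes lower in the knockdown. The difference of -21.0% became -22.5% over gene spans alone, -22.3% with 2 kb flanks, -15.8% within 10 kb of gene ends, -3.92% in the upper 50% of peaks by score, -22.9% with equal numbers of peaks, -8.92% with equal covered bases, -22.2% with peaks of 2 kb or more, -21.4% without chromosomes 19, 20, 21 and 22, and -20.7% without peaks near other genes' ends, an alternative added later with results in view. The median difference of -1.70 kb became -1 kb over gene spans, -1.10 kb with 2 kb flanks, -0.5 kb within 10 kb of ends, 0 kb in the upper 50% by score, -0.7 kb with equal covered bases and -1.90 kb with peaks of 2 kb or more. Of the 42 members, the 12 shorter became 6 within 10 kb of ends, 7 in the upper 50% by score and 7 with equal covered bases. They became 5 after scaling to equal totals and 2 at 2-fold. Over all protein-coding genes the shorter share was 20.1% within 10 kb of ends, 19.4% in the upper 50% and 14.1% with equal covered bases. It was 14.6% after scaling and 10.8% at 2-fold. The members' share lay below these backgrounds except with equal covered bases. In the other alternatives the count did not fall. It was 13 over gene spans alone, 12 with 2 kb flanks and 14 with equal numbers of peaks. With peaks of 2 kb or more it was 12, and without peaks near other genes' ends 13. Over gene spans alone 20.9% of all protein-coding genes were shorter, below the members' share. The 2 longer members became 4 over gene spans, 1 with 2 kb flanks and 5 in the upper 50% by score. Over all protein-coding genes 12.2% were longer over gene spans and 11.03% in the upper 50% by score. Counts of marked members kept within 1.5 times under each alternative, and were 26 in each list by listed starts, where 30 members could be counted. The share of wild-type peaks with a counterpart was 82.0% in the upper 50% by score and 80.7% with equal covered bases. With at least 50% of both peaks in common the shares were 44.4% in knockdown cells and 39.8% in wild-type cells. The cause of these shifts was not tested. No paired analysis was possible because each group had 1 library and no replicate number.

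Limits: windows of 19 members hold other protein-coding genes, only some of them named above, whose peaks are counted with the collagen gene. Without read counts, a low-scored peak present in 1 list and absent from the other cannot be told apart from unequal depth.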
